A study of Mus musculus with 5 samples.

Results

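The peaks described here are the first 300 lines of a list of 7737 genomic regions called as Gata6 peaks in the mouse pancreas. They are set against the remaining 7437. They were chosen by their place in the deposited order alone, without sorting, because the line order may reflect an unprinted rank. Gata6 chromatin immunoprecipitation followed by sequencing (ChIP-seq) was done on pancreas tissue of C57BL/6 wild-type mice. There were 2 libraries at an age of 5 weeks and 2 at 14 weeks. A single library of pooled input DNA was the background sample. The list holds a chromosome, a start and an end for each peak on the genome build mm9 and no height, score or value per library, so depth, replicate spread and a difference between ages could not be computed. Since the calling that set the order may also have set width and position, all values below are descriptions without tests. Intervals are exact 95% binomial intervals, which cover counting error only and are too narrow where neighbouring peaks are not independent.

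Gata6, a transcription factor with zinc fingers, recognises GATA motifs. It acts with Gata4 in the formation of the pancreas, and in the adult organ it takes part in keeping the identity of acinar cells, which make and secrete digestive enzymes. Acinar genes are also bound by factors such as Ptf1a, whose complex recognises E-boxes, and Nr5a2, a nuclear receptor that recognises an extended AGGTCA half-site. Cel encodes carboxyl ester lipase, a bile salt-activated lipase of pancreatic juice. Cela1 and Cela2a encode chymotrypsin-like elastases, which are serine proteases.

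The promoters of these genes are shown because the 3 loci hold the widest peak of the list. The loci also hold the largest of the peak groups that include a peak described here. Locus positions are those given for the genes on mm9 to the nearest 10 kb. The windows run from 250 bases before to 50 bases after the start of each gene, from RefSeq on GRCm38.p6, all on the minus strand: chr2:28563354-28563653 for Cel, chr15:100687871-100688170 for Cela1 and chr4:141825956-141826255 for Cela2a. This is another build than that of the peaks, so these positions cannot be set against peak coordinates, and whether a peak covers the window was not tested. Capitals mark AGATAA and TGATAA, which are of the GATA type, CACCTG (an E-box) and CAAGGTCA (Nr5a2 type), each searched on both strands.

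Cel: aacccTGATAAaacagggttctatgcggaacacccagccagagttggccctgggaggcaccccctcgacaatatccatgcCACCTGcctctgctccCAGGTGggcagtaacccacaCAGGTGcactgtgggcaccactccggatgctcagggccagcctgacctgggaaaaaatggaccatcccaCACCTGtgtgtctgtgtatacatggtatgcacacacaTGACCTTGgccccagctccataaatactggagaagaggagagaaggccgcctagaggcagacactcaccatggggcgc

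Cela1: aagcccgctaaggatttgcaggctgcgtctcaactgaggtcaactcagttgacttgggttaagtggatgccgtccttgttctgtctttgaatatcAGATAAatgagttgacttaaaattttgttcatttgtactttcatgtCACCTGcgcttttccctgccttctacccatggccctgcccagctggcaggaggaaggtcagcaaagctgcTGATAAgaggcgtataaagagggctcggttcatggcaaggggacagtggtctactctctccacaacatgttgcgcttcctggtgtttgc

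Cela2a: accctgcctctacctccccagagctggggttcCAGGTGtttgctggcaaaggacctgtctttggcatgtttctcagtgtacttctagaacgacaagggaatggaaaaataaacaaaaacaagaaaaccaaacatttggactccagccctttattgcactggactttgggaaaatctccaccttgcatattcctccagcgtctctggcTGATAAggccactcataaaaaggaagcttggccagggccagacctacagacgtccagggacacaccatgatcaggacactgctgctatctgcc

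All 3 windows held a GATA-type match and at least 1 E-box match. Positions here count the first base of a match from the gene start. Cela1 had AGATAA at -155 and TGATAA at -39, Cela2a had TGATAA at -43, and Cel had TGATAA at -245. The TGATAA matches of both elastase genes thus lay 4 bases apart in their distance to the start. Cel alone of the 3 held the exact sequence CAAGGTCA, at -28 on the opposite strand. The shorter AGGTCA, which was not searched for, can be read in the Cela1 window too. Cel also had 4 matches to CACCTG against 1 each in Cela1 and Cela2a. Among all 32851 RefSeq promoter windows of the same length, AGATAA or TGATAA was present in 18.6%, CACCTG in 20.2% and CAAGGTCA in 1.56%. A match is a description of the letters in the window and not a bound site.

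The first 300 lines were not a single ordered set. Lines of the list fall into 94 runs, and inside each run peaks are ordered by the name of the chromosome and then by start. The first 300 lines hold run 1 (lines 1 to 90), run 2 (lines 91 to 195) and only the first 105 of the 404 lines of run 3. Within a run the order follows the chromosome name, in which 10 comes before 2, so lines of the same run cannot be ranked against each other. The list opened on chromosome 1 at 138906744 to 138907433 with a peak of 690 bp, followed on the same chromosome by peaks of 686 bp at 156964732, 1057 bp at 170217930 and 695 bp at 182995429. Line 5 was a peak of 491 bp on chromosome 10 at 41329125. Line 300 fell on chromosome 13, inside run 3. The last 3 peaks inside the limit measured 423, 1332 and 1280 bp, and the first 3 outside it 542, 483 and 484 bp. These 6 peaks belonged to the same sorted run, so the limit has no counterpart in the order of the list.

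The first 300 peaks had a median width of 875.5 bp (95% interval of the median 801 to 960 bp), with quartiles at 612.75 and 1265.25 bp, a smallest width of 221 bp and a largest of 6367 bp. The other 7437 peaks had a median of 723 bp (714 to 732 bp) and quartiles at 531 and 985 bp. The gap was widest in run 1. Its 90 peaks had a median of 1064 bp (987 to 1304 bp), while run 2 had 782 bp (741 to 897 bp) and the lines of run 3 inside the limit had 801 bp (694 to 889 bp). The 299 lines of run 3 left outside the limit had 798 bp (752 to 870 bp), within the interval of the lines inside it. The 210 members without run 1 had a median of 783 bp (741 to 865 bp).

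**Figure D1:**
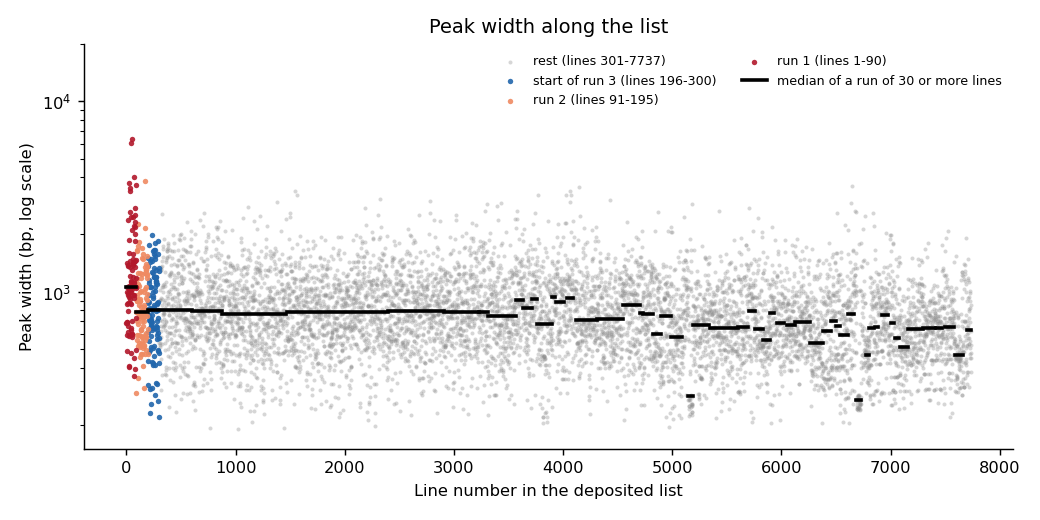
Peak width in bp (log axis) against line number; each point is a peak, coloured by run for the first 300 lines, and black bars are medians of runs of at least 30 lines. The bar of run 1 lies at 1064 bp, and those of the 55 other runs drawn lie between 269 and 943 bp.

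Very wide peaks were frequent in run 1. The 90th percentile of width over the whole list was 1319 bp, and by construction 9.98% of all peaks were wider. Among the first 300 this was 69 peaks (23.0%, 18.4 to 28.2%), against 9.45% of the remaining lines. Run 1 held 35 of the 69, which is 38.9% of its peaks (28.8 to 49.7%), where no other run of at least 30 lines had more than 21.7%. Shorter runs stood on both sides of run 1, with 40% in run 30 (10 lines) and 0% in run 45 (5 lines). Run 2 had 15.2% (8.97 to 23.6%) and the members from run 3 had 17.1% (10.5 to 25.7%), next to 18.7% in the part of run 3 outside the limit. Peaks of at least 2 kb made up 20% of run 1 (18 of 90 peaks), 3 of 105 in run 2, none of the 105 members from run 3 and 1.44% of the remaining lines. In the cumulative plot of widths, the curve of run 1 lies to the right of those of run 2 and the run 3 members at middle and large widths. At the narrow end run 2 lies beside run 1, with 9.52% and 8.89% of peaks under 500 bp, against 21.0% of the run 3 members.

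**Figure D2:**
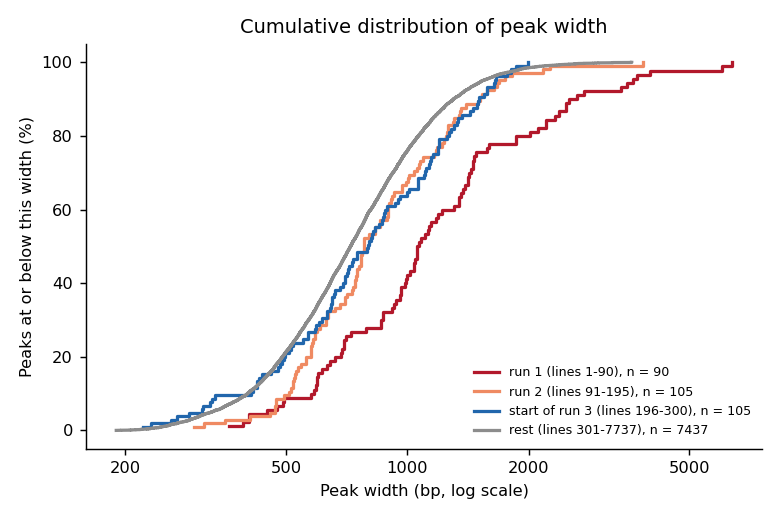
Percentage of peaks at or below each width (bp, log axis) for run 1 (n = 90), run 2 (n = 105), the members from run 3 (n = 105) and the remaining 7437 lines. At the middle of the scale the curves cross at 1064, 782, 801 and 723 bp.

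Of the 10 widest peaks in the whole list, 8 were among the first 300 lines, 7 of them in run 1. The widest, 6367 bp on chromosome 2 at 28414568 to 28420934 (line 51), is the peak at Cel. The second, 6038 bp on chromosome 17 at 39979838 to 39985875 (line 39), had its nearest neighbour 2903 kb away, and the repeat content of its sequence was not tested. The third, 3995 bp on chromosome 4 at 141371632 to 141375626 (line 68), is at Cela2a. Line 171, from run 2, spanned 3839 bp of chromosome 5 at 108151954 to 108155792.

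Chromosome 15 supplied 4 of the 10 widest members. Lines 28 and 29 measured 3712 and 3394 bp and lay side by side at 78673497 to 78677208 and 78679982 to 78683375. Between them lay 2 much later lines, 1351 bp at 78677306 (line 6171) and 907 bp at 78678661 (line 5028). With gaps of up to 500 bp merged, these 4 peaks formed the widest region of the list, 9879 bp, ahead of 7577 bp at Cel. Lines 34 and 35, of 3497 bp at 100510307 to 100513803 and 2627 bp at 100516336 to 100518962, belong to the Cela1 locus. The remaining members of the 10 were 3628 bp on chromosome 9 at 44292697 to 44296324 (line 86) and 2740 bp on chromosome 8 at 124806470 to 124809209 (line 81). The narrowest members all came from run 3: 221 bp on chromosome 13 at 64512013 (line 295), 231 bp on chromosome 10 at 20008268 (line 217) and 259 bp on chromosome 10 at 86981468 (line 230).

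Being early in the list was not the same as being wide. Wide peaks also stood late, for example, picked after their values were seen, the seventh widest, 3600 bp on chromosome 5 at 123584460, at line 6650, and the eighth, 3568 bp on chromosome 11 at 69230602, at line 4147. Across all 7737 lines, Spearman's rho of line number and width was -0.20, a description over peaks of 1 list that share a calling. When the list was divided into 26 blocks of up to 300 lines, the first block had the second highest median width, 875.5 bp, below the 883 bp of lines 3901 to 4200. The first block did have the highest share of peaks wider than 1319 bp, 23.0%, where the 25 others ranged from 3.33 to 18.7%.

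Peaks of run 1 had close neighbours more often than the list as a whole. In the whole list, 28.9% of peaks had another midpoint within 10 kb. Among the first 300 it was 109 peaks (36.3%, 30.9 to 42.1%), against 28.6% (27.5 to 29.6%) of the remaining lines. Run 1 had 44 of 90 (48.9%, 38.2 to 59.7%), run 2 had 29 of 105 (27.6%, 19.3 to 37.2%) and the members from run 3 had 36 of 105 (34.3%, 25.3 to 44.2%). The intervals of run 2 and of the run 3 members both contain the share of the remaining lines, and that of run 1 does not. Among runs of at least 30 lines, some later ones came close: run 23 (lines 4704 to 4734) had 45.2% and run 11 had 39.0%. Shorter runs stood on both sides of run 1, with 53.8% in run 28 (13 lines) and 0% in run 45 (5 lines). The 25 later blocks of 300 lines ranged up to 34.7%. Medians of the distance to the closest other peak were 11 kb in run 1, 25.9 kb in run 2, 21.4 kb in the members from run 3 and 32.2 kb in the remaining lines. In run 1, 7 of 90 peaks (7.78%) had no other peak within 100 kb, against 24.6% of the remaining lines.

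**Figure D3:**
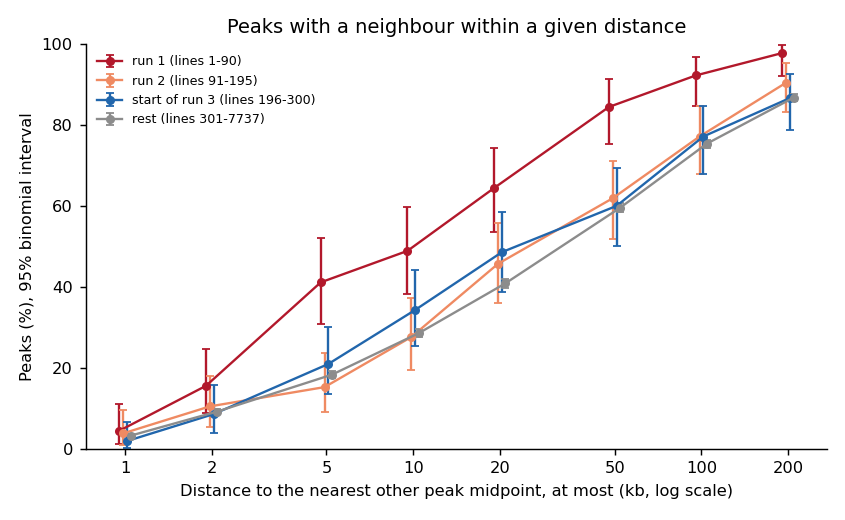
Percentage of peaks whose nearest other midpoint lies within the distance on the horizontal axis (kb, log axis), with exact 95% binomial intervals; points are shifted sideways slightly. Run 1 stands above the other sets at every distance drawn, with 4.44% at 1 kb, 41.1% at 5 kb, 92.2% at 100 kb and 97.8% at 200 kb. Its interval is clear of those of both run 2 and the run 3 members at 5 and 50 kb only, and at 1 kb all intervals overlap.

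The neighbours of members were mostly later lines, which make up 7437 of the 7737 peaks of the list. Another member lay within 10 kb of 21 of the 300 members (7%), 12 of 90 within run 1 and none of 105 within run 2. Lines 31 to 35 at Cela1 and lines 67 to 69 at Cela2a were among the 12. Wide peaks had neighbours more often throughout the list, in 38.3% of the remaining lines wider than 1319 bp and 27.5% of the others. Run 1 was above both figures, with 20 of its 35 wide peaks (57.1%, 39.4 to 73.7%) and 24 of its 55 others (43.6%, 30.3 to 57.7%). Part of the closeness was at the scale of adjoining edges: the gap to the nearest peak edge was under 500 bp in 21.1% of run 1, 4.76% of run 2, 5.71% of the run 3 members and 6.25% of the remaining lines. Without the peaks at Cel, Cela1 and Cela2a it was 11 of 81 in run 1 (13.6%, 6.98 to 23.0%) and 6.07% of the remaining lines. After peaks with gaps of up to 500 bp were merged, 34 of 86 regions from run 1 (39.5%, 29.2 to 50.7%) and 24.1% of those from the remaining lines still had a neighbour within 10 kb.

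Joining midpoints that followed each other within 10 kb placed 109 members in 96 groups of at least 2 peaks, of which 40 held 3 or more. In 8 groups there was more than 1 member. In the 88 groups with exactly 1 member, that member was the widest in 20 of 30 (66.7%) when it came from run 1 and in 28 of 58 (48.3%) when it came from run 2 or run 3. Members made up 37.5% and 36.9% of the peaks in these groups. Because groups differ in size, these pooled shares lie below the rate at which a peak picked blindly from each group would be its widest. The largest of these 96 groups was the one at Cela1, with 13 peaks over 25.2 kb and 5 members. A group of 6 peaks on chromosome 1 at 135967775 to 135996750 held 1 member, from run 3 (line 207), and its widest peak, 2604 bp, stood at line 1497. A group of 6 peaks on chromosome 4 at 141369407 to 141384569, at Cela2a, held 4 members. Another 8 groups with a member had 5 peaks each, all with 1 member.

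The chromosomes of the first 300 peaks were shaped by where the limit cuts run 3. The 105 lines taken from that run came from chromosomes 1 (19 peaks), 10 (21), 11 (38), 12 (18) and 13 (9) only, while the 299 lines left out held every peak of the run on chromosomes 2 to 9, 14 to 19 and X, and 2 on chromosome 13. Chromosome 11 therefore accounted for 55 of the 300 (18.3%, 14.1 to 23.2%), against 7.99% of the remaining lines. In the complete runs 1 and 2 it accounted for 17 of 195 (8.72%, 5.16 to 13.6%). The same was seen for chromosome 10, which had 9.33% of the 300 and 3.59% of the complete runs beside 5.03% of the remaining lines. Chromosome 12 had 7.33%, 2.05% and 4.26% in the same order, and chromosome 1 had 9.67%, 5.13% and 6.21%. Chromosome 13 had 6.67%, 5.64% and 4.11%, so, like chromosome 11, it stood above the remaining lines in the complete runs as well. All 5 shares were thus higher with the cut part of run 3 than in the complete runs.

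**Figure D4:**
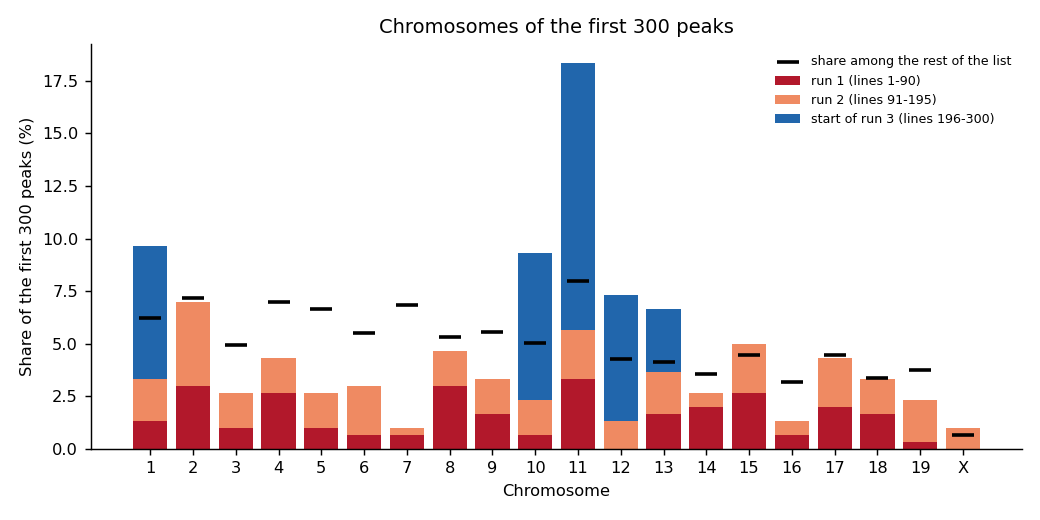
Share of the first 300 peaks on each chromosome (%), stacked by run, with the share of each chromosome among the remaining 7437 lines as a black bar. The blue parts, from run 3, occur on chromosomes 1 and 10 to 13 and lift chromosome 11 to 18.3%.

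In the 195 lines of the complete runs, the limit has no part in the chromosome shares. There chromosome 15 had 15 peaks (7.69%, 4.37 to 12.4%) where the remaining lines had 4.46%, which the interval contains. Of these 15 peaks, 5 were lines 31 to 35 at the Cela1 locus, and lines 28 and 29 lay side by side. Chromosome 7 had 3 (1.54%, 0.318 to 4.43%) where the remaining lines had 6.86%, above the interval. Both were picked out after the values of all chromosomes had been seen. Chromosome 7 had no peaks from run 3 among the members and 26 in the part of run 3 outside the limit. Chromosome X had 3 of the 300 (1%, 0.207 to 2.89%) and 0.672% of the remaining lines. All 3 came from run 2 and fell within 1.03 Mb, at 10294359 to 10295709, 10844813 to 10845447 and 11325326 to 11325798, with widths of 1351, 635 and 473 bp. This stretch held 6 of the 53 peaks of the list on X. No member lay on sequence that mm9 leaves unplaced, where the remaining lines had 4.

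Among cytogenetic bands, light bands held 46.7% (40.9 to 52.5%) and the darkest bands, which tend to be poor in genes, 24.3% (19.6 to 29.6%), beside 48.0% and 20.7% of the remaining lines. In the complete runs the darkest bands held 27.2% (21.1 to 34.0%), with 23.3% in run 1 (15.1 to 33.4%) and 30.5% in run 2 (21.9 to 40.2%). Of the banded length of mm9, light bands make up 40.9% and the darkest bands 31.4%. The farthest members from any other peak were, after line 39, line 136 on chromosome 17 at 69766362 to 69766998, with a distance of 1331 kb, and line 226 on chromosome 10 at 57834007 to 57834723, with 1245 kb.

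The 3 acinar enzyme loci gave 10 of the first 300 peaks, 9 of them in run 1. Within 50 kb of the 3 positions there were 35 peaks in all, so 10 of 35 were members, where the whole list has 300 of 7737. The 3 loci were chosen with earlier results of these data known, so this count is a description and no independent finding. Members made up 45.0% of the summed width of the 35 peaks. The widest peak at each locus was a member. The other 25 were spread through the list, 12 of them after line 3868, the middle of the list. Genes are named here from the locus positions given for mm9, not from an mm9 annotation, so whether a peak lies in an exon, an intron or between genes was not tested.

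Cel, which lies between Ralgds and Gtf3c5 in the RefSeq order of protein-coding genes, had 6 peaks and 1 member. The member was line 51, whose 6367 bp were 54.0% of the peak width at the locus. A peak of 1146 bp ended 64 bp before it at line 4637. Beyond that lay peaks of 1025 bp at 28411503 (line 3909) and 1810 bp at 28409567 (line 7343), which were 126 bp apart. These 4 neighbouring peaks thus spanned early, middle and late lines of the list. On one side a peak of 840 bp at 28372655 (line 3442) had no other within 37.4 kb. On the other, a peak of 596 bp at 28457512 (line 5802) had its nearest neighbour 4.37 kb away, outside the 50 kb limit of the locus.

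Cela1, between Bin2 and Galnt6, had 15 peaks and 5 members, all in run 1. These were lines 31 to 35: 916 bp at 100503931, 872 bp at 100506123, 1454 bp at 100508814, 3497 bp at 100510307 and 2627 bp at 100516336. Lines 33 and 34 were 39 bp apart. Between lines 34 and 35 lay a peak of 1896 bp at 100514398, which was line 6997, with gaps of 594 and 42 bp to them. Between lines 31 and 32, line 5631 covered 1126 bp from 100504888. A pair of narrow peaks of 350 and 418 bp, at 100507687 and 100508186, were lines 712 and 713. On the far side, 4 peaks from 100522047 to 100529135 stood at lines 1085, 4060, 344 and 4024 and measured 1349, 755, 680 and 3231 bp. A pair of 1268 and 1463 bp at 100461298 and 100462697 (lines 3401 and 4598) lay about 40 kb from the group.

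Cela2a had 14 peaks and 4 members. Whether some of the 14 belong to another gene within the 50 kb was not tested. Lines 67 and 68, of 2209 bp at 141369407 and 3995 bp at 141371632, were 16 bp apart. Line 69 was a peak of 1109 bp at 141381339. Line 169, from run 2, was a peak of 469 bp at 141379685. Between lines 68 and 169 lay a peak of 2097 bp at 141377059, which was line 4720 and was wider than lines 69 and 169. The remaining peaks of the locus measured 424 to 1723 bp and stood between lines 472 and 6217, and 7 of them lay from 141395529 to 141419321.

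**Figure D5:**
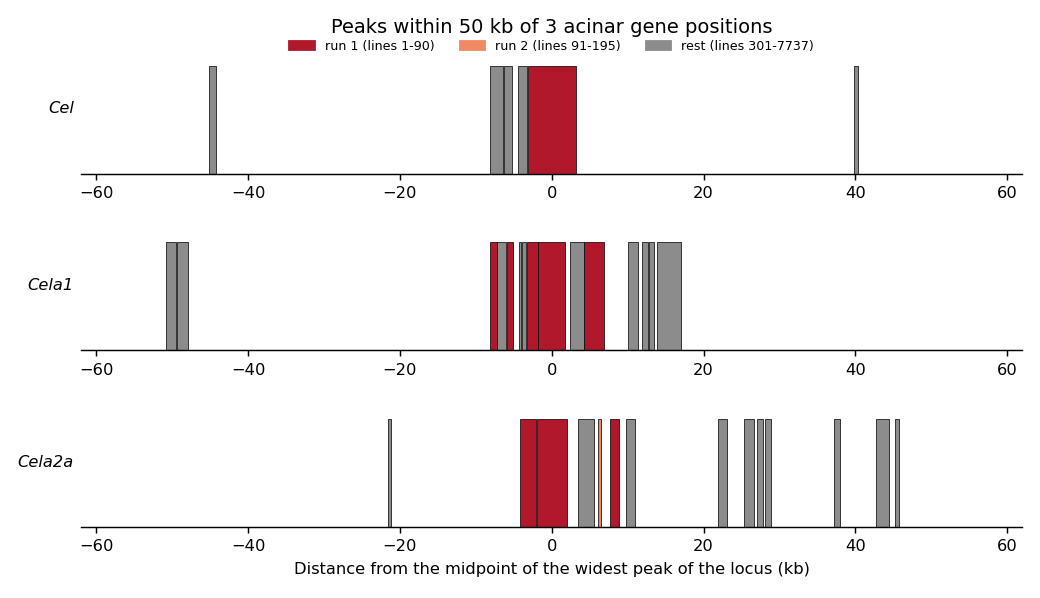
Peaks within 50 kb of the Cel, Cela1 and Cela2a positions, drawn to scale by distance in kb from the midpoint of the widest peak of each locus; colours give run 1, run 2 and the remaining lines, and box height has no meaning. The widest peak, at 0 by construction, is from run 1 at each locus and has a peak of a later line on at least one side, with gaps of 64 bp at Cel, 594 bp at Cela1 and 1432 bp at Cela2a.

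Without the peaks at these 3 loci, run 1 kept a median width of 1056 bp (964 to 1194 bp) and 35 of its 81 peaks (43.2%, 32.2 to 54.7%) had a neighbour within 10 kb. The 62 later-line peaks within 10 kb of a run 1 peak had a median line number of 3164 and a median width of 801.5 bp, and 43.5% of them stood after line 3868. Neighbours of run 2 peaks (39) had medians of line 3671 and 939 bp, with 48.7% after that line, and neighbours of the run 3 members (45) had line 3341 and 791 bp, with 33.3%. All lines after the limit had 4019 and 723 bp, with 52.0%. Neighbours in all 3 sets thus had lower median line numbers and larger median widths than the later lines as a whole. The baseline is not matched, since every neighbour has another peak within 10 kb by definition and 28.6% of the later lines do.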

How the data were processed

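Gata6 ChIP-seq of mouse pancreas was grouped by sample titles into 4 Gata6 libraries and 1 input. The authors deposited 1 list of positions, treated as a pooled result of the Gata6 libraries. The list holds no other values such as heights. The build mm9, CASAVA 1.8 and BWA 0.5.9-r16 come from the submitters' processing notes, which give no role. The name of the deposited list carries FDR and the digit 1, unexplained. The peak caller, the meaning of that threshold label and the pooling of libraries were not given in the sources used. Line order is kept as deposited, and a calling that varies with coverage or mappability would carry into order, width and number.

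Starts were read as 0-based and printed 1-based. A run ends where chromosome name and start fall. Distances are between midpoints. Lengths and bands of mm9 came from GenomeInfoDb 1.38.1 and circlize 0.4.16 (R 4.3.3), and other steps used Python 3.11.15, pandas 2.3.3 and scipy 1.17.1. Run finding, distances, groups and merging were checked on 20 simulated lists and all were recovered. Members, loci and measures were chosen with earlier results of these data known. Peaks named are lines 1 to 5, 3 lines either side of the limit, and the 10 widest, 3 narrowest and 3 most isolated members. Also named are members on X, the largest groups with a member and all peaks at the 3 loci. All 3 gene symbols matched the RefSeq tables.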

Additional observations from a re-analysis of the deposited data

How the results depend on the processing

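Of 61 alternative values, 39 stayed within the interval of the value reported (for counts, within 1.5 times) and 22 did not. With the first 100 lines the median width was 1058 bp, 45% had a neighbour within 10 kb, 37% were wider than 1319 bp, 10% lay on chromosome 11 and 0% on X. With run 1 alone, an alternative added after the list was seen, these were 1064 bp, 48.9%, 38.9%, 11.1% and 0%. Without run 1, added likewise, the median was 783 bp and 16.2% were wider than 1319 bp. The chromosome 11 share was 8.50% for 200 lines, 11% for 500, 12.6% for 1000, 8.72% for the 195 lines before run 3 and 9.18% for the 599 lines to its end. With 1000 lines, 17.2% were wider than 1319 bp. Merging peaks with edges within 500 bp gave 30.7% with a neighbour, against 24.1% of later regions. Within 1 kb and 50 kb the shares were 3.33% and 68.0%, against 3.24% and 59.6% of the remaining lines. A 50 kb limit gave 180 groups with a member in place of 96. The locus limits of 20 and 100 kb gave 10 members as at 50 kb. X could not be evaluated on autosomes alone. Unknown depth limits any statement on weaker sites, and peaks of 1 list show no variation between animals. No paired analysis was possible because values of single libraries are not part of the list.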
